A study of Homo sapiens with 32 samples.

Results

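DLD1 is a human colorectal cancer cell line, and its G579S derivative carries a glycine-to-serine substitution in the CDK11B kinase that the study's design describes as giving resistance to CDK11 inhibition. The data described here are the 4 libraries of DLD1 G579S cells, 2 treated with OTS964 at 100 nM and 2 with the solvent DMSO for 6 hours, chosen by their titles from 32 libraries of the series. The remaining libraries are A375 melanoma, Cal51 and MDA-MB-231 breast cancer and further DLD1 samples, wild-type or G579S, under the same pair of treatments. Each of the 16 groups had 2 libraries, and the sources used here do not say whether they came from separate cultures or whether the G579S cells are 1 clone, so p-values measure only the spread between these libraries. The question addressed was how much of the transcriptome still responded to OTS964 in DLD1 cells labelled with the resistance mutation. The genotype was taken from the titles and was not checked, because transcript counts do not show the substitution.

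CDK11A and CDK11B are near-identical serine/threonine kinases that pair with cyclin L1 or L2 and the partner SAP30BP. They phosphorylate SF3B1, the largest subunit of the U2 particle's SF3B complex, a step in activation of the spliceosome, and have further roles in transcription and mitosis. OTS964 was developed as an inhibitor of the mitotic kinase PBK and was later found to act through CDK11. Cells with a CDK11B mutation that blocks the drug's action are used as a control for its effects through CDK11.

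The 4 libraries held between 16746335 and 21184398 estimated reads, of which 14620985 to 18585832 were assigned to named genes. Replicates correlated at r = 0.981 in DMSO and 0.979 in OTS964 over log2 CPM, the counts scaled to the library's size. The colorectal transcription factor CDX2 was at 96.2 and 96.5 CPM in DMSO and at 135 and 145 CPM in OTS964, and the summed CPM of 27 colorectal epithelial markers was 12256 and 12724 in DMSO and 17147 and 17332 in OTS964, with CDX1 and FABP1 at 0 in all 4. The keratin gene KRT8 alone gave 5768 and 6027 CPM of the DMSO sums. Of the 27 markers, 18 reached 5 CPM in each treatment. VIL1 was at 0.386 and 0.474 CPM and LGALS4 at 0.276 and 0.263 CPM in DMSO. The part of the higher marker sum in the results was not tested. Markers of 14 melanocyte genes summed to 88.5 to 98.6 CPM and those of 17 mesenchymal genes to 70.5 to 75.6 CPM. The libraries labelled DLD1 wild-type went against their label: in their DMSO samples SOX10, a neural crest factor, was at 737 and 695 CPM against 0.938 and 1.63 in DLD1 G579S cells, and CDX2 was at 2.84 and 3.66 CPM. They were therefore kept out of the wild-type reference, which is the mean response of A375, Cal51 and MDA-MB-231 wild-type cells.

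OTS964 changed many genes in DLD1 G579S cells. In the edgeR quasi-likelihood test with Benjamini-Hochberg adjustment, 3368 of 14314 tested genes (23.5%) passed an adjusted p of 0.05. Of these, 1551 were higher with the drug (10.8%) and 1817 were lower (12.7%), and 4829 genes had an unadjusted p under 0.05. Requiring a change of 2-fold or more in addition left 202 genes higher (1.41%) and 936 lower (6.54%), or 1138 in all (7.95%). The median size of the change among called genes was 0.78 on the log2 scale. Changes in the mix of cells and changes of RNA within each cell cannot be told apart in bulk RNA.

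The balance between higher and lower genes rested on the scaling. TMM factors, which set the typical gene to no change, were 1.15 and 1.14 in DMSO and 0.960 and 0.971 in OTS964. With libraries scaled by their totals instead, the median change moved by -0.248 log2, and 527 genes were higher (3.68%) and 2831 lower (19.8%), again 23.5% in all. The share of higher genes among those called was 46.05% with TMM and 15.69% with library totals, and 527 higher and 1817 lower genes were called in the same direction under both. Leaving out any of the 4 libraries lowered the number called, to 1965 without OTS964 replicate 1, 2165 without OTS964 replicate 2, 2044 without DMSO replicate 1 and 2049 without DMSO replicate 2.

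**Figure D1:**
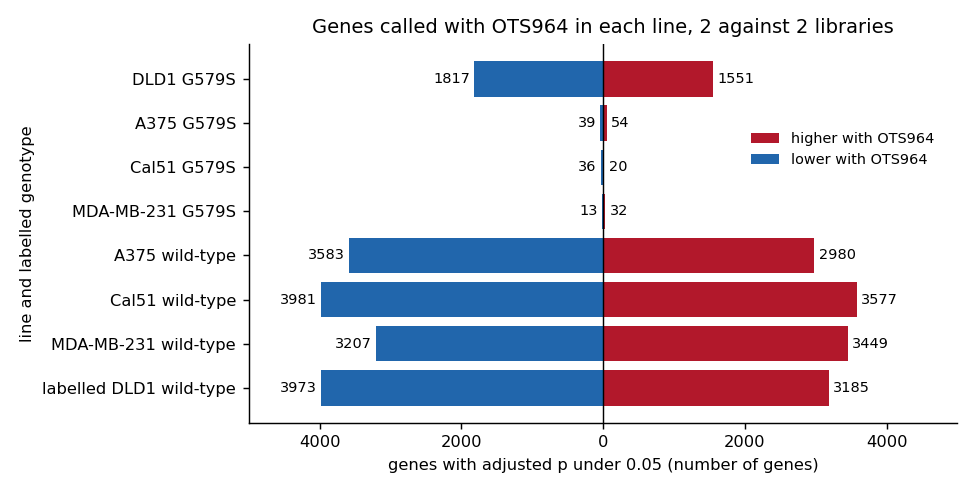
Number of genes with an adjusted p under 0.05 for OTS964 against DMSO in each line and labelled genotype, with genes higher in OTS964 to the right and genes lower to the left of 0. DLD1 G579S cells had 1551 higher and 1817 lower genes, between the A375, Cal51 and MDA-MB-231 G579S cells (45 to 93 genes in all) and the libraries labelled wild-type (6563 to 7558 genes).

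Among the G579S lines, DLD1 stood apart in number. A375 G579S cells had 93 called genes (0.65%), Cal51 G579S cells 56 (0.391%) and MDA-MB-231 G579S cells 45 (0.314%). The difference between the DLD1 response and the mean response of those 3 lines was itself tested in the same fit, and 1727 genes (12.1%) passed, 668 higher in DLD1 (4.67%) and 1059 lower (7.40%). Scaled by library totals, 234 genes were higher and 1663 lower. Against single lines the difference passed for 746 genes against A375 G579S (5.21%), 1775 against Cal51 G579S (12.4%) and 1116 against MDA-MB-231 G579S (7.80%). These 4 tests share the DLD1 libraries. The comparison lines were not alike in the kinase gene itself: CDK11B was at 605 and 672 CPM in DMSO libraries of MDA-MB-231 G579S cells, where the wild-type cells of that line had 61.8 and 56.4 CPM and DLD1 G579S cells 50.6 and 46.4 CPM. Its part in these differences was not tested. Without any 1 of the 4 DLD1 G579S libraries, between 853 and 1045 genes differed from the mean of the other lines, the lowest without OTS964 replicate 1.

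The CDK11 complex itself changed in its regulatory subunits. CDK11B was at 50.6 and 46.4 CPM in DMSO and 50.6 and 57.3 CPM in OTS964, a log2 change of 0.15 ± 0.16 (SE, adjusted p = 0.58), and CDK11A was at 37.4 and 36.5 against 33.4 and 32.6 CPM (-0.16 ± 0.15, adjusted p = 0.51). The paralogs share reads, so the split between them is uncertain, and neither passed the test. CCNL1, the gene of cyclin L1, was at 14.5 and 9.69 CPM in DMSO and at 74.7 and 79.7 CPM in OTS964. Its rise was 2.67 ± 0.37 log2 (adjusted p = 3.68e-05). In the other G579S lines the CCNL1 change was 1.04 in A375, 0.67 in Cal51 and 0.91 in MDA-MB-231, and the DLD1 change exceeded their mean by 1.80 ± 0.41 (adjusted p = 0.00714). The wild-type mean was 1.98, and the difference of 0.69 ± 0.41 from it did not pass (adjusted p = 0.203). That mean joined unlike lines: CCNL1 changed by 2.73 in A375, 2.97 in Cal51 and 0.25 in MDA-MB-231 wild-type cells, the last not passing (adjusted p = 0.625).

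CCNL2, the gene of cyclin L2, was at 11.0 and 15.5 CPM in DMSO and 30.1 and 19.8 CPM in OTS964, a change of 0.91 ± 0.26 (adjusted p = 0.0164). That call was lost without DMSO replicate 1 (adjusted p = 0.19), without OTS964 replicate 1 (adjusted p = 0.25) and with library totals (adjusted p = 0.0701). SAP30BP fell by 0.55 on the log2 scale, from 66.6 and 70.6 CPM to 44.2 and 49.3 CPM (adjusted p = 0.000491), where the wild-type mean was -1.17 and the other G579S lines lay between -0.13 and 0.17. SF3B1, the CDK11 substrate, rose from 239 and 242 CPM to 401 and 386 CPM (0.71 ± 0.11, adjusted p = 7.06e-05), against 0.65 in the wild-type mean. PBK, the kinase against which OTS964 was developed, was at 87.6 and 84.7 CPM in DMSO and 86.2 and 76.2 CPM in OTS964 and did not pass (adjusted p = 0.815).

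The genes that rose most included several of RNA processing. RBM39, a splicing factor that binds the U2AF proteins, was at 168 and 161 CPM in DMSO and 795 and 768 CPM in OTS964. Its change was 2.25 ± 0.33 (adjusted p = 5.9e-05), while the wild-type mean was -0.97, so the responses had opposite signs and differed by 3.22 ± 0.38 (adjusted p = 1.51e-06). RSRC2, an arginine- and serine-rich protein, was at 63.3 and 60.6 CPM in DMSO and 333 and 302 CPM in OTS964 (2.36 ± 0.40, adjusted p = 0.00025). PRPF38B, a pre-mRNA splicing factor, rose from 62.8 and 64.2 to 253 and 227 CPM (1.92 ± 0.17, adjusted p = 1.44e-07). For each of these 3 genes the DLD1 change was larger than in the mean of the other G579S lines, by 1.62, 1.98 and 1.57 log2, and each of the 3 differences passed (adjusted p = 0.00635, 0.00621 and 1.91e-05).

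Genes with other roles rose to a like degree. NUP98, a component of the nuclear pore, was at 40.2 and 36.0 CPM in DMSO and 196 and 180 CPM in OTS964 (2.31 ± 0.29, adjusted p = 1.12e-05). In wild-type cells its mean change was -1.20, and among the other G579S lines it was 0.08, 0.55 and -0.86. TAF1D, a subunit of the RNA polymerase I selectivity factor, rose from 22.6 and 22.8 to 106 and 108 CPM (2.23 ± 0.19, adjusted p = 1.31e-07). CREBZF, a bZIP regulator, rose from 18.3 and 18.5 to 78.0 and 78.6 CPM (2.09 ± 0.31, adjusted p = 6.06e-05), less than the 3.69 of the wild-type mean (difference -1.60 ± 0.35, adjusted p = 0.000897). CREBZF also rose in A375 G579S (1.58, adjusted p = 0.0203) and MDA-MB-231 G579S cells (1.78, adjusted p = 0.0192), with 0.45 in Cal51 G579S. Its difference of 0.81 ± 0.35 from the mean of the other G579S lines did not pass (adjusted p = 0.142). These 3 genes were among those named for having no overlap between the treatments, so the separation of their libraries follows from the choice.

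The KRAB zinc finger gene ZNF26 had the largest rise among the genes the naming rule picked, from 0.166 and 1.58 CPM to 13.6 and 12.6 CPM (3.89 ± 0.74, adjusted p = 0.000968). In a fit of the 4 DLD1 G579S libraries alone its adjusted p was 0.051.

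**Figure D2:**
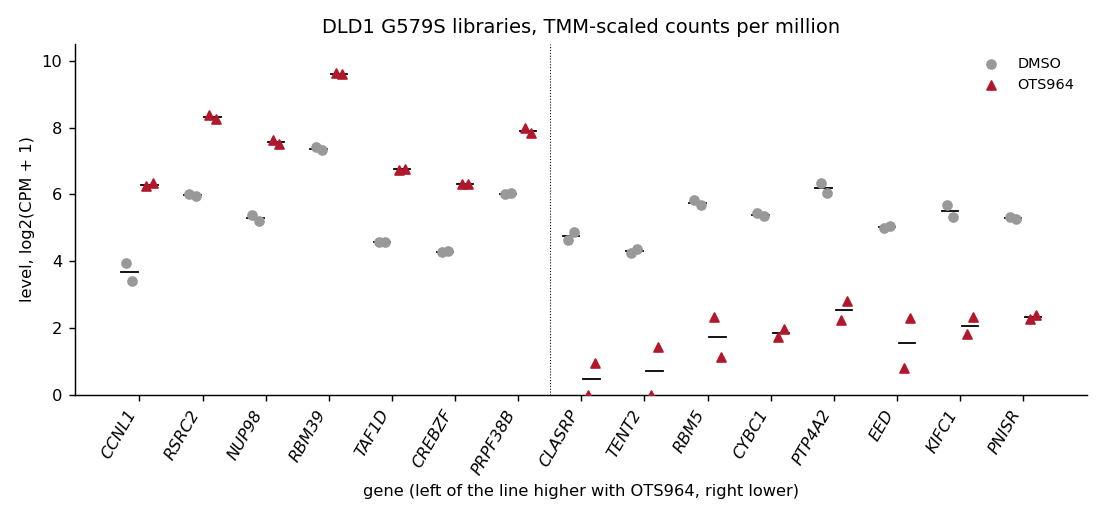
Levels of 15 genes in the 4 DLD1 G579S libraries as log2(CPM + 1), grey circles for DMSO, red triangles for OTS964 and black bars for the mean of 2. The 15 genes were picked from called genes without overlap between the treatments, so the separation of their libraries follows from the choice. CCNL1 rose from 14.5 and 9.69 CPM to 74.7 and 79.7 CPM and RBM5 fell from 55.4 and 50.4 CPM to 4.04 and 1.20 CPM.

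More genes fell at least 2-fold than rose. RBM5, an RNA-binding regulator of splicing and apoptosis, was at 55.4 and 50.4 CPM in DMSO and 4.04 and 1.20 CPM in OTS964, a log2 change of -4.30 ± 0.37 (adjusted p = 1.31e-07). The change was 0.21, 0.81 and 0.00 in A375, Cal51 and MDA-MB-231 G579S cells, so the difference from their mean was -4.63 ± 0.41 (adjusted p = 5.31e-07). It also went below the wild-type mean of -1.99, by -2.31 ± 0.40 (adjusted p = 0.000109). Its neighbour and relative RBM6 fell from 43.6 and 40.0 to 12.2 and 13.7 CPM (-1.69 ± 0.17, adjusted p = 5.8e-07).

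PNISR, an SR-related nuclear speckle protein, fell from 38.7 and 37.4 CPM to 3.81 and 4.23 CPM (-3.24 ± 0.23, adjusted p = 1.21e-08). Here the wild-type mean was -3.01, and the difference of -0.23 ± 0.25 did not pass (adjusted p = 0.556). CLASRP, which binds the splicing kinase CLK4, was at 23.7 and 28.2 CPM in DMSO and at 0 and 0.916 CPM in OTS964. The wild-type mean for CLASRP was -0.50, and the response differed from it (adjusted p = 4.39e-05) and from the other G579S lines (adjusted p = 0.000955). A375 G579S cells had a CLASRP change of -2.63.

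PTP4A2, the phosphatase PRL-2, fell in DLD1 G579S cells and not in the wild-type mean. It was at 80.4 and 64.6 CPM in DMSO and 3.70 and 6.06 CPM in OTS964 (-3.91 ± 0.28, adjusted p = 1.21e-08). In wild-type cells its mean change was 0.02 and in the other G579S lines it lay between -0.29 and 0.02. The difference was -3.93 ± 0.31 from the wild-type mean (adjusted p = 6.77e-09) and -3.74 ± 0.30 from the other G579S lines (adjusted p = 2.62e-07).

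CYBC1, a chaperone of the phagocyte oxidase subunits, fell from 42.2 and 39.8 to 2.30 and 2.89 CPM (-3.99 ± 0.24, adjusted p = 1.79e-09). EED, a subunit of Polycomb repressive complex PRC2, fell from 31.1 and 32.0 to 0.729 and 3.95 CPM (-3.79 ± 0.65, adjusted p = 0.000279), and the mitotic kinesin KIFC1 fell from 50.3 and 39.0 to 2.52 and 4.02 CPM (-3.79 ± 0.32, adjusted p = 9.22e-08). These 3 genes also fell in wild-type cells, with mean changes of -2.19, -4.38 and -2.56. TRIM65, a ubiquitin ligase, fell from 21.8 and 26.1 to 2.86 and 2.47 CPM and the mitochondrial rRNA methyltransferase gene MRM1 from 12.9 and 13.8 to 0.897 and 1.06 CPM. CAPN15, an atypical calpain, fell from 13.1 and 25.3 CPM to 0.336 and 0.282 CPM. TENT2, a cytoplasmic poly(A) polymerase, was at 17.8 and 19.7 CPM in DMSO and 0 and 1.69 CPM in OTS964 (adjusted p = 0.00116, but 0.094 in a fit of the 4 DLD1 G579S libraries alone).

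Some genes were listed at 0 in both OTS964 libraries. There were 24 with a mean of at least 5 CPM in DMSO, against 7 in the reverse direction. Among them ADCY3, an adenylyl cyclase, was at 28.8 and 31.6 CPM in DMSO, at least 159-fold lower in OTS964 by a floor of 3 counts per library (0.190 CPM on average). Its adjusted p was 0.0383 and lay between 0.079 and 0.18 when any 1 of the 4 libraries was left out. MDN1, a ribosome assembly AAA ATPase, was at 14.6 and 8.69 CPM and U2SURP, a U2 particle protein, at 13.5 and 16.2 CPM in DMSO, and neither passed (adjusted p = 0.161 and 0.151). These 2 were chosen for naming after their values were seen. Estimated counts can list a gene at 0 in single libraries: 47 genes had no reads in 1 DMSO library but 5 CPM or more in its replicate, and 61 did so in OTS964. These counts were not tested for their part in the 24.

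Promoter sequences are shown for 2 genes that rose and 2 that fell, so that the base composition and motifs can be compared within the pairs. They are the 250 bases before the start in RefSeq's annotation of GRCh38.p14, written 5′ to 3′ along the gene's strand, with CCNL1 at chr3:157160148-157160397 on the minus strand, RSRC2 at chr12:122526937-122527186 on the minus strand, RBM5 at chr3:50088669-50088918 on the plus strand and PNISR at chr6:99425309-99425558 on the minus strand. Capitals mark matches, on either strand, to the motifs searched: the TATA box with the letters TATAAA, the CCAAT box, the CRE with the letters TGACGTCA, the AP-1 site TGANTCA, the E-box of MYC with the letters CACGTG, the ETS site CCGGAAG, the YY1 core GCCATNTT and the GC box with the letters GGGCGG. Overlapping matches were all kept.
CCNL1: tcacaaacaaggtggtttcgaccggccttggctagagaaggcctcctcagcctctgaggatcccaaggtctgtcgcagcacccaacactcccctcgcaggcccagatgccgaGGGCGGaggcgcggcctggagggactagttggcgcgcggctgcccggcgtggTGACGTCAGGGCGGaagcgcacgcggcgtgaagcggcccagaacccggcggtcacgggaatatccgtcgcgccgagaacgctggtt
RSRC2: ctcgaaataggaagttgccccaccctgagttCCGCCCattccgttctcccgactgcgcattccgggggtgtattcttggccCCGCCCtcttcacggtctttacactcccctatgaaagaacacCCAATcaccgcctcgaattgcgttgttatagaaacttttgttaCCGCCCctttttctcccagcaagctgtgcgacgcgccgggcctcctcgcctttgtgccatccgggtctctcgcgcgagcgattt
RBM5: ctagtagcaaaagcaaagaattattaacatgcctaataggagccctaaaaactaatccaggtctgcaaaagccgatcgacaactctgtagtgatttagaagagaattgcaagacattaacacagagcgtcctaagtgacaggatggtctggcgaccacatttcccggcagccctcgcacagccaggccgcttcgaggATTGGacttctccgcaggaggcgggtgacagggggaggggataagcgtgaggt
PNISR: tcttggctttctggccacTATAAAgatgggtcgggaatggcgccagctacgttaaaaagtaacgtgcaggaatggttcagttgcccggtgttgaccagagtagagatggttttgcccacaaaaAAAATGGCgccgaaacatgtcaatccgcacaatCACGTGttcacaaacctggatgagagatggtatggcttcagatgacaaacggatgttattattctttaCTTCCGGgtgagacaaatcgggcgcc
CCNL1 held 1 CRE and 2 GC boxes, RSRC2 held 1 CCAAT box and 3 GC boxes, RBM5 held 1 CCAAT box, and PNISR held 1 each of the TATA box, E-box, ETS and YY1 motifs. The CRE occurred in 1.77% of all 27305 promoters of the table, in 3.22% of 7911 promoters of tested genes above 5 CPM, in 3.47% of 144 promoters of genes that rose at least 2-fold and in 2.99% of 536 promoters of those that fell at least 2-fold. The GC box occurred in 42.3%, 70.0%, 62.5% and 72.2% of the same sets, the TATA box in 11.1%, 4.70%, 8.33% and 3.54% and the E-box in 6.49%, 9.53%, 11.1% and 5.41%. These shares are descriptions of letters in the window, with no test.

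Core spliceosome genes were mostly higher. Of 47 tested core spliceosome genes, 30 were higher and 1 was lower, with a median of 0.51 log2 against 0 over all tested genes. With library totals 13 were higher and 3 lower and the median was 0.27. All tested genes above 5 CPM are the closer comparison for such abundant genes: 3009 of 9477 were called (31.75%), 1520 higher and 1489 lower, with a median of 0.06. The SF3A and SF3B subunits gave 9 higher of 10 (7 with library totals) and a median of 0.69.

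Within the spliceosome, PRPF3, a U4/U6 particle protein, rose from 53.8 and 57.4 to 144 and 146 CPM (1.38 ± 0.12, adjusted p = 1e-07). RBM22, which joins the activated spliceosome, rose from 88.2 and 90.1 to 182 and 165 CPM (0.96 ± 0.08, adjusted p = 9.03e-08), and USP39, a tri-snRNP factor, from 88.7 and 87.2 to 153 and 150 CPM. PRPF3 and RBM22 moved the other way in wild-type cells, with mean changes of -0.76 and -1.23, and the differences passed (adjusted p = 5.53e-10 and 4.92e-12). In the wild-type mean, where 27.2% of all tested genes were higher and 32.4% lower, 34 core spliceosome genes were higher and 8 lower with a median of 0.45.

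SR proteins and their kinases split. Of 25 tested, 11 were higher and 3 lower in DLD1 G579S cells, with a median of 0.81 (0.56 with library totals, 7 higher and 4 lower). Of the 25, 20 were above 5 CPM, where 1520 of 9477 genes were higher and 1489 lower. In the wild-type mean 5 were higher and 11 lower with a median of -0.59, against 27.2% and 32.4% of all tested genes. The difference between the responses passed for 13 genes higher and 2 lower in DLD1 G579S, where 19.9% and 22.0% of all tested genes passed. SRSF2, an exonic enhancer binding protein, rose from 329 and 346 to 856 and 877 CPM (1.36 ± 0.17, adjusted p = 1.07e-05). SRSF4 was at 98.6 and 96.6 CPM in DMSO and 264 and 287 CPM in OTS964 (1.5 ± 0.37, adjusted p = 0.00578, or 0.051 without DMSO replicate 2). In the other direction SRSF5 fell from 26.4 and 49.3 to 11.8 and 12.0 CPM (-1.67 ± 0.34, adjusted p = 0.0012). SON, the scaffold of nuclear speckles, was at 101 and 56.3 CPM in DMSO and 12.7 and 19.4 CPM in OTS964 (adjusted p = 0.0137), and its call was lost without DMSO replicate 1, OTS964 replicate 1 or OTS964 replicate 2 (adjusted p = 0.11, 0.13 and 0.052).

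Of 43 RBM and hnRNP genes, 22 were higher and 7 lower, with a median of 0.33 (13 higher, 7 lower and 0.09 with library totals). All 43 were above 5 CPM, where 1520 of 9477 genes were higher and 1489 lower. The hnRNP genes, which coat nascent RNA, gave 14 higher and 2 lower of 20, and the RBM genes 8 higher and 5 lower of 23. RBM4B, a splicing regulator, fell from 18.6 and 19.3 to 6.95 and 5.78 CPM (-1.57, adjusted p = 0.00072). RBM39 at the top and RBM5 at the bottom thus marked the range of the RBM genes.

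Factors of the 3′ end and of the polymerase's partners moved in both directions. Of 20 cleavage and polyadenylation genes, 5 were higher and 6 lower with a median of 0.05, against 10.8% and 12.7% over all tested genes. All 20 were above 5 CPM, where 1520 of 9477 genes were higher and 1489 lower. CPSF4, which reads the polyadenylation signal, fell from 58.8 and 58.4 to 11.7 and 12.5 CPM (-2.28 ± 0.15, adjusted p = 9.14e-09), close to the wild-type mean of -2.60. RBBP6 fell from 95.2 and 91.8 to 33.3 and 37.5 CPM and CPSF6 from 140 and 143 to 72.5 and 69.3 CPM, while CSTF1 rose from 31.4 and 28.4 to 53.6 and 57.9 CPM.

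Of 43 Mediator and Integrator genes, 7 were higher and 10 lower (10.8% and 12.7% over all tested genes), with a median of 0.09 (-0.16 with library totals, 2 higher and 15 lower). Of the 43, 40 were above 5 CPM, where 1520 of 9477 genes were higher and 1489 lower. MED31 fell from 7.95 and 7.06 to 0.953 and 0.634 CPM (-3.22 ± 0.31, adjusted p = 5.06e-07), and MED22 and MED29 fell by 1.11 and 0.96 log2. MED17, of the Mediator head, rose from 38.0 and 45.7 to 98.2 and 87.3 CPM (1.15 ± 0.18, adjusted p = 0.000119) against -2.17 in the wild-type mean. Of 17 other transcription kinases and cyclins, 3 were higher and 2 lower here. In the wild-type mean 1 was higher and 11 lower, against 27.2% and 32.4% of all tested genes. Of the 17, 16 were above 5 CPM, where 31.75% of genes were called in DLD1 G579S.

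The list of homologous recombination and Fanconi genes had the lowest median of the lists with at least 10 tested genes. Of 33 tested, 10 were lower, with a median of -0.43 (-0.68 and 14 lower with library totals), against 12.7% lower over all tested genes. Of the 33, 31 were above 5 CPM, where 1489 of 9477 genes were lower. FANCC, of the Fanconi core complex, fell from 41.3 and 40.8 to 11.0 and 12.5 CPM (-1.80 ± 0.12, adjusted p = 9.14e-09). FANCL, its ubiquitin ligase subunit, fell from 39.9 and 41.4 to 10.1 and 11.8 CPM (-1.89 ± 0.23, adjusted p = 6.13e-06). In the other G579S lines FANCL had changes between -1.21 and -0.62, and the DLD1 change differed from their mean by -0.92 (adjusted p = 0.0222).

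DNA replication and E2F genes gave 7 higher and 11 lower of 45, with a median of 0.11, against 10.8% higher and 12.7% lower over all tested genes. All 45 were above 5 CPM, the closer comparison, where 1520 of 9477 genes were higher and 1489 lower. RFC4, a clamp loader subunit, fell from 49.3 and 46.8 to 6.61 and 6.20 CPM (-2.90 ± 0.20, adjusted p = 1.11e-08). E2F1, the S-phase transcription factor, fell from 65.5 and 66.8 to 24.7 and 24.6 CPM (-1.43 ± 0.20, adjusted p = 2.85e-05), where the wild-type mean was 0.11 (difference adjusted p = 1.61e-05). ORC6 and POLA2, of origin recognition and primase, fell by 1.29 and 1.33 log2.

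The balance of mitosis genes turned with the scaling. Of 44 tested, 14 were higher and 7 lower in DLD1 G579S cells with a median of 0.30 with TMM, and 5 were higher and 9 lower with a median of 0.05 with library totals. All 44 were above 5 CPM, where 31.75% of all genes were called. In the wild-type mean 3 were higher and 31 lower with a median of -0.70, against 27.2% and 32.4% of all tested genes. The difference passed for 27 genes higher and 3 lower in DLD1 G579S, against 19.9% and 22.0% of all tested genes. PLK4, the kinase of centriole duplication, rose from 25.3 and 24.9 to 60.7 and 67.4 CPM (1.35 ± 0.22, adjusted p = 0.000165). SPC24, of the outer kinetochore, fell from 12.6 and 13.9 to 5.21 and 4.30 CPM (-1.47, adjusted p = 1.61e-05).

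Of 16 BCL2 family genes, 1 was higher and 4 were lower, with a median of -0.40 (-0.65 with library totals). Over the 11 members above 5 CPM the median was -0.18, and the share of the 16 called was near the 31.75% called of all genes above 5 CPM. The anti-apoptotic BCL2L2 fell from 34.6 and 35.2 to 4.71 and 7.82 CPM (-2.48 ± 0.19, adjusted p = 2.24e-08). BOK, a pore-forming effector, fell from 40.8 and 40.3 to 11.7 and 6.13 CPM (-2.18 ± 0.29, adjusted p = 2.49e-05), and its wild-type mean of -0.39 differed (adjusted p = 0.000213). Of 22 p53 target genes, 3 were higher and 4 lower, also near the 31.75%. CDKN1A, the cell cycle inhibitor p21, fell from 26.0 and 24.8 to 13.3 and 12.9 CPM (-0.96 ± 0.15, adjusted p = 0.000121), whereas the wild-type mean was 0.77 and the difference passed (adjusted p = 1.6e-07).

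Several stress and metabolic lists had more members higher than lower with TMM, against 10.8% higher and 12.7% lower over all tested genes. Most of their members lay above 5 CPM, where 1520 of 9477 genes were higher and 1489 lower. Of 30 ATF4 and unfolded protein response genes, 10 were higher and 1 lower, with a median of 0.37 (4 higher, 3 lower and 0.13 with library totals). SESN2, a sestrin that restrains mTORC1 and a target of ATF4 and p53, rose from 25.9 and 26.2 to 63.6 and 64.1 CPM (1.29 ± 0.16, adjusted p = 1.18e-05) against a wild-type mean of -2.84. The responses differed by 4.13 ± 0.20 (adjusted p = 2.07e-11). Hypoxia and glycolysis genes gave 10 higher of 23 with TMM, but 1 higher and 1 lower with library totals. KDM3A, a hypoxia-induced histone demethylase, was at 31.7 and 31.7 CPM in DMSO and 61.04 and 59.96 CPM in OTS964 (adjusted p = 0.000939). Heat shock genes gave 7 higher and 1 lower of 20 with TMM, but 1 higher and 4 lower with library totals. Of 17 metallothionein and oxidative stress genes 3 were higher, and of 24 cholesterol synthesis genes 3 were higher and 3 lower.

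Genes of the translation machinery and respiration shifted by small amounts. For these abundant genes the closer comparison is all 9477 genes above 5 CPM, of which 1520 were higher and 1489 lower with TMM. With library totals 3.68% of all tested genes were higher and 19.8% lower. Of 77 cytosolic ribosomal protein genes 54 were higher, with a median of 0.47, and with library totals 10 were higher and the median was 0.22. In the wild-type mean all 77 were higher with a median of 1.15, where 27.2% of all tested genes were higher. The difference was lower in DLD1 G579S for 72 of 77, against 22.0% of all tested genes. RPS6 went from 1013 and 1011 CPM to 1598 and 1533 CPM (0.63 ± 0.12, adjusted p = 0.00098). Of 52 nuclear oxidative phosphorylation genes 17 were higher with TMM, and 1 was higher and 3 lower with library totals. Proteasome genes gave 14 higher and 1 lower of 31 with TMM (3 and 2 with library totals). Of 36 ribosome biogenesis genes 11 were higher and 6 lower, and WDR43, of the small subunit processome, rose from 107 and 103 to 298 and 288 CPM (1.48 ± 0.17, adjusted p = 3.69e-06) against -1.66 in wild-type cells.

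Immediate early genes are those that growth signals induce within minutes. Of 36 tested, 4 were higher and 3 lower with a median of 0.12, near the 10.8% and 12.7% of all tested genes. In the wild-type mean 24 were higher and 6 lower with a median of 0.94, against 27.2% and 32.4% of all tested genes. The difference passed for 21 genes lower and 5 higher in DLD1 G579S, against 22.0% and 19.9% of all tested genes. FOS was at 12.2 and 9.64 CPM in DMSO and 7.68 and 7.12 CPM in OTS964 (adjusted p = 0.402) and EGR1 at 139 and 147 against 114 and 115 CPM (adjusted p = 0.835). ID1, a dominant inhibitor of bHLH factors, fell from 50.1 and 58.3 to 15.2 and 19.6 CPM (-1.64 ± 0.22, adjusted p = 2.33e-05), where the wild-type mean was 1.48 (difference adjusted p = 1.2e-08).

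MYC was at 99.7 and 106 CPM in DMSO and 145 and 150 CPM in OTS964 (0.52 ± 0.15, adjusted p = 0.0146), against 2.84 in the wild-type mean (difference -2.32 ± 0.17, adjusted p = 4.35e-09). Its call was lost with library totals (adjusted p = 0.165) and without any 1 of the 4 libraries (adjusted p between 0.055 and 0.11). CCN1, a secreted target of YAP and SRF, was at 598 and 608 CPM in DMSO and 1016 and 944 CPM in OTS964 (0.70 ± 0.18, adjusted p = 0.00875), and its call was lost without DMSO replicate 1, DMSO replicate 2 or OTS964 replicate 1 (adjusted p = 0.062, 0.053 and 0.066). The CCN1 call was also lost with library totals (adjusted p = 0.0507). CCN1 changed by 0.91 in A375, 0.15 in Cal51 and 1.05 in MDA-MB-231 G579S cells. The difference of -0.005 ± 0.21 between DLD1 G579S and their mean did not pass. MYC changed by 0.21, 0.13 and 0.73 in the same lines, and its difference of 0.16 ± 0.17 did not pass (adjusted p = 0.679). Of 22 feedback genes of the ERK pathway 4 were higher and 1 lower, near the 23.5% called over all tested genes. EPHA2, a receptor tyrosine kinase, rose from 293 and 294 to 537 and 553 CPM (0.89 ± 0.14, adjusted p = 8.96e-05).

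Of 20 Wnt target and colorectal stem cell genes 4 were lower with a median of -0.23, where 12.7% of all tested genes were lower. Over the 16 members above 5 CPM the median was 0.09. Among the 4 lower genes SMOC2 was at only 0.442 and 0.0527 CPM and DKK1 at 0.718 and 0.790 CPM in DMSO. Of 20 tested colorectal epithelial markers, whose summed level was higher with OTS964 as given above, 5 were higher and 1 lower with a median of 0.40 (1 and 1, and 0.15, with library totals), against 23.5% called over all tested genes. Of the 20, 18 were above 5 CPM, where 31.75% of genes were called. ELF3, an epithelial ETS factor, rose from 24.5 and 29.1 to 51.8 and 59.0 CPM (1.05, adjusted p = 0.00159). Of 10 tested breast epithelial markers 1 was higher and 1 lower with a median of 0. FOXA1, a pioneer factor, rose from 137 and 133 to 269 and 266 CPM (0.99 ± 0.22, adjusted p = 0.00304), and TFAP2A, an AP-2 transcription factor, fell from 10.54 and 11.12 to 6.28 and 5.71 CPM (-0.85 ± 0.20, adjusted p = 0.00408). STAT2, an interferon signal transducer, fell from 43.9 and 38.8 to 15.0 and 16.0 CPM (-1.42 ± 0.17, adjusted p = 9.09e-06), one of 3 lower among 25 interferon genes, with 1 higher, which is below the 23.5% called over all tested genes. Of 72 KRAB zinc finger genes 8 were higher, a share near the 10.8% of all tested genes, and 1 was lower with a median of 0.40. In the wild-type mean 5 of them were higher and 36 lower with a median of -1.16, against 27.2% and 32.4% of all tested genes. Of 33 replication-dependent histone genes 3 were higher, near the 10.8% of all tested genes, and only 5 of the 33 were above 5 CPM. Among the 3, H2BC21 rose from 5.41 and 5.37 to 14.7 and 16.5 CPM (adjusted p = 6.66e-05), a gene whose relatives can share its reads.

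**Figure D3:**
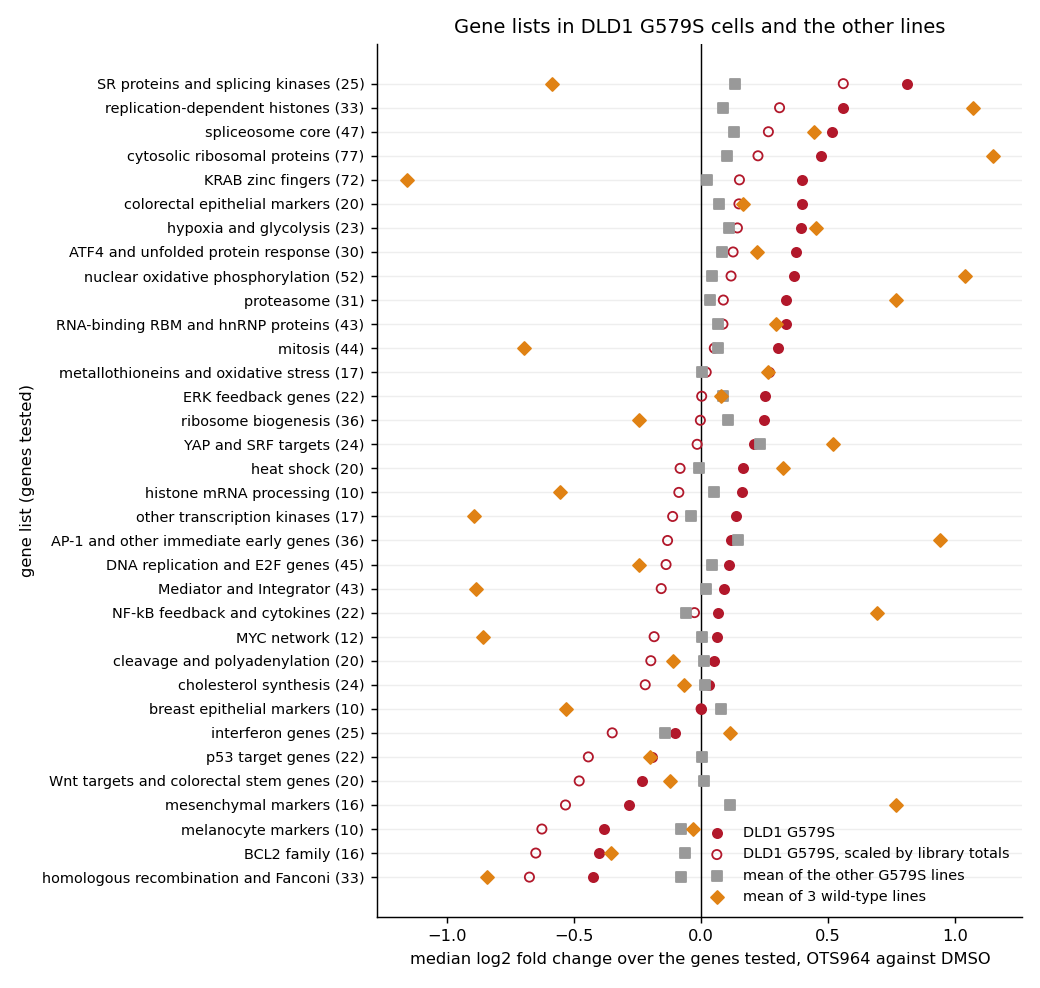
Median log2 fold change of OTS964 against DMSO for each gene list with at least 10 tested genes, the number tested in brackets, for DLD1 G579S with TMM (filled red), DLD1 G579S with library totals (open red), the mean of the other G579S lines (grey squares) and the mean of 3 wild-type lines (orange diamonds). SR proteins and splicing kinases had the highest median in DLD1 G579S (0.81) and homologous recombination and Fanconi genes the lowest (-0.43), and mitosis, KRAB zinc finger and SR genes lay on the other side of 0 in the wild-type mean.

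Set against the wild-type response, the DLD1 G579S response was partly shared. Of the 3368 called genes, 1833 were called in the same direction in the wild-type mean (54.4%, and 21.5% of the 8534 genes called there, which were 59.6% of those tested). Another 859 were called in the opposite direction (25.5% and 10.1%). Of the 1551 genes higher here, 515 were lower there. These counts are to be read against the shares over all tested genes. In the wild-type mean 27.2% were higher and 32.4% lower, and in DLD1 G579S 10.8% and 12.7%. Over 9477 genes above 5 CPM the log2 changes correlated across genes at r = 0.173 and rho = 0.180, a description over genes that are not independent. The difference between the responses passed for 6005 genes (42.0%), 2853 higher (19.9%) and 3152 lower (22.0%) in DLD1 G579S, and with library totals for 3493 higher and 1879 lower. Of 4349 genes with a fold of at least 2 in the wild-type mean, 894 (20.6%) were called in the same direction in DLD1 G579S, and the difference passed for 2925 (67.3%).

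The sharing depended on the line. A375, Cal51 and MDA-MB-231 wild-type cells, with 45.9%, 52.8% and 46.5% of tested genes called, shared 1756, 1777 and 1146 same-direction calls with DLD1 G579S, which were 26.8%, 23.5% and 17.2% of their own calls, and opposite calls were 563, 749 and 987. The correlation across 9477 genes was r = 0.228, 0.203 and -0.003, and by rank rho = 0.290, 0.228 and -0.041. For A375, Cal51 and MDA-MB-231 G579S cells r was 0.195, 0.033 and 0.139, and rho was 0.443, 0.123 and 0.260. Of the 93 genes called in A375 G579S cells 70 were called in the same direction in DLD1 G579S (75.3%), as were 32 of 45 in MDA-MB-231 G579S (71.1%) and 25 of 56 in Cal51 G579S (44.6%).

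**Figure D4:**
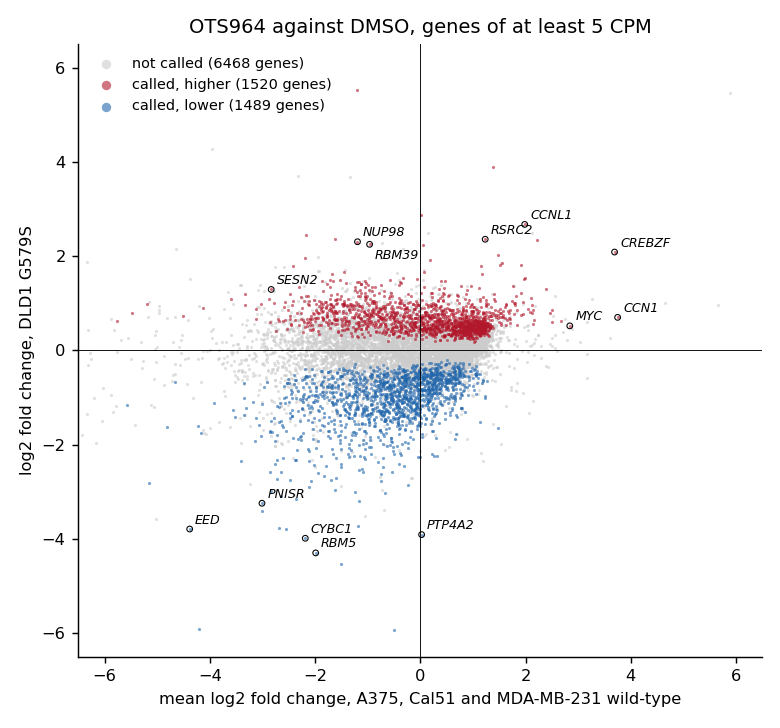
Log2 fold change of OTS964 against DMSO in DLD1 G579S cells (vertical) against the mean of A375, Cal51 and MDA-MB-231 wild-type cells (horizontal) for 9477 genes above 5 CPM, 35 of them outside the axes, coloured by the call in DLD1 G579S. CCNL1, RSRC2 and CREBZF rose on both axes, PNISR and EED fell on both, RBM39, NUP98 and SESN2 rose here and fell there, and PTP4A2 fell here with a wild-type mean of 0.02.

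Among the genes called in opposite directions in the 2 responses, SETD5, a SET domain protein, rose from 46.4 and 52.95 to 157 and 189 CPM (1.80 ± 0.39, adjusted p = 0.00211) against -2.43 in wild-type cells (difference adjusted p = 7.77e-07). NUP153, of the nuclear basket, rose from 113 and 114 to 311 and 325 CPM (1.48 ± 0.24, adjusted p = 0.000166) against -1.71 (difference adjusted p = 4.03e-08). SETD5 and NUP153, picked for passing in both responses, were higher in both OTS964 libraries than in both DMSO libraries.

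In all, 152 genes with a fold of at least 2 were called in DLD1 G579S cells and in no other OTS964 contrast, which does not by itself show a difference from those contrasts. They included ADCY9, an adenylyl cyclase that fell from 16.9 and 18.3 to 6.28 and 5.78 CPM (-1.54, adjusted p = 1.29e-05), and SLC25A43, a mitochondrial carrier that fell from 8.56 and 7.17 to 2.86 and 1.48 CPM (-1.84, adjusted p = 2.35e-05). PPP6R2, a regulatory subunit of phosphatase 6, fell from 43.0 and 37.2 to 15.5 and 15.5 CPM (-1.37, adjusted p = 2.69e-05), and MBTPS2, the site-2 protease that frees SREBP and ATF6, from 33.5 and 33.1 to 16.4 and 14.7 CPM (-1.10, adjusted p = 5.54e-05). For these 4 genes the difference from the other G579S lines passed as well (adjusted p = 5.53e-05, 0.000585, 0.00454 and 0.00105).

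The called genes differed in build. Above 5 CPM, the genes that rose had a median level of 111 CPM and those that fell 26.8 CPM, against 40.6 CPM over all. The genes that fell had a median of 12 exons in the annotated model with the most exons and those that rose 8, against 10 over all. Of the genes that rose 3.77% had a single exon, of those that fell 0.135%, and of all 1.52%. These are descriptions over genes, which are not replicates, and the part of the level in the exon numbers was not tested.

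Some genes changed in which transcript carried the reads. A test of each transcript's share within its gene, with p-values joined per gene by Simes' method, passed for 36 of 7052 genes (0.510%), while 452 had an unadjusted p under 0.05. In 30 of the 36 the transcript that moved most was lower, in 25 it was listed at 0 in both OTS964 libraries, and 13 of the 36 were also called for the gene as a whole. In A375, Cal51 and MDA-MB-231 G579S cells 7, 18 and 15 genes passed (0.0993%, 0.255% and 0.213%), and in their wild-type counterparts 67, 90 and 56 (0.950%, 1.28% and 0.794%). Between 10 and 22 of the 36 genes were still among those called without 1 library, 10 without OTS964 replicate 1 and 12 without OTS964 replicate 2.

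MRPL4, a mitochondrial ribosomal protein, gave the smallest p (adjusted p = 7.18e-17 in edgeR's diffSpliceDGE). Its transcript NM_015956.2 was at 38.6 and 41.5 CPM in DMSO and listed at 0 in both OTS964 libraries, while NM_146388.1 was at 22.5 and 17.1 CPM in DMSO and 49.6 and 52.2 CPM in OTS964. The gene as a whole did not pass (log2 change 0.13, adjusted p = 0.633). In the other 7 groups of OTS964 libraries NM_015956.2 was between 11.8 and 63.0 CPM, so only the DLD1 G579S libraries listed it at 0.

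CENPN, a centromere protein that reads CENP-A nucleosomes, lost NM_001100624.2 from 24.6 and 38.8 CPM to 0 and 0. The same transcript was listed at 0 in both OTS964 libraries of A375 and of Cal51 wild-type cells. SKA3, of the spindle and kinetochore complex, lost NM_145061.5 from 25.8 and 26.7 CPM, and ASXL1, a Polycomb regulator, lost NM_015338.5 from 72.8 and 59.3 CPM, which was likewise at 0 in A375 and Cal51 wild-type cells with OTS964. SYNCRIP, an hnRNP, lost NM_001159677.1 from 43.0 and 67.1 CPM while the gene rose (0.80, adjusted p = 9.3e-05). In A375 and Cal51 G579S cells that SYNCRIP transcript was also at 0 with OTS964, whereas in MDA-MB-231 G579S cells it was listed at 0 in both DMSO libraries and at 29.6 and 13.0 CPM with OTS964. Reads are divided among overlapping transcripts by an estimate, so these values depend on the authors' estimates.

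**Figure D5:**
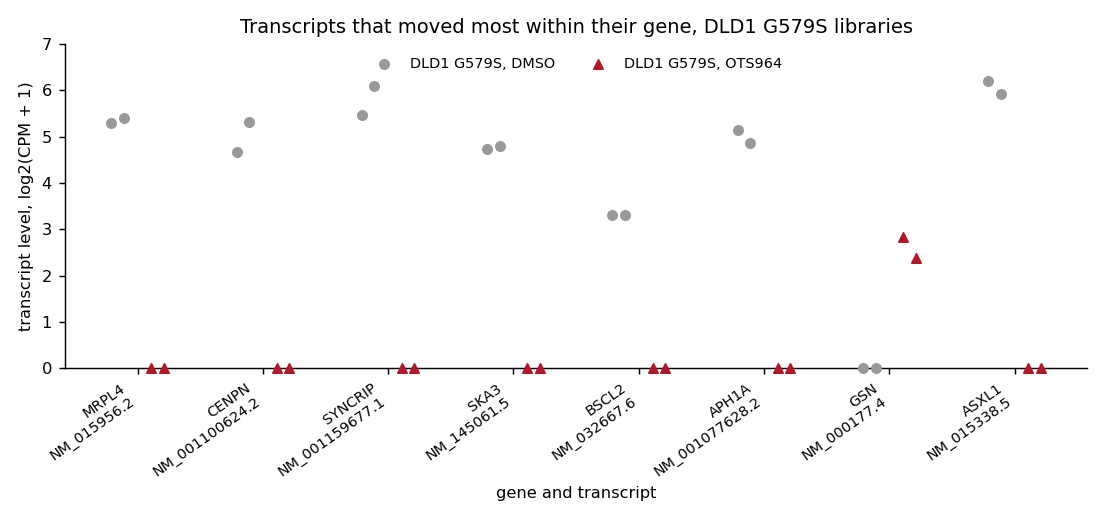
Levels of the 8 transcripts with the smallest gene-wise adjusted p, as log2(CPM + 1), in the 2 DMSO (grey circles) and 2 OTS964 (red triangles) libraries of DLD1 G579S cells. In 7 of 8 the transcript is listed at 0 in both OTS964 libraries, and GSN transcript NM_000177.4 is at 0 in both DMSO libraries and at 6.18 and 4.21 CPM in OTS964.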

How the data were processed

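RNA from 4 human cell lines, wild-type or G579S, was sequenced after 6 hours with DMSO or OTS964 at 100 nM, from libraries made with a SMARTer mRNA kit, per the labels' protocols. Per the file headers, the authors deposited for each library a table of 87398 transcripts with length, effective length, TPM and estimated counts, which are not normalized. The sources used here do not name the tool that estimated them. Of genome builds, the submitters' processing notes list GRCm38 and mm10, both of the mouse, but the identifiers are human RefSeq ones. The authors' TPM values, deposited beside the counts, were used in 1 alternative only. Only annotated transcripts were counted, so retained introns were not measured here, and reads of near-identical genes, such as CDK11A and CDK11B, histone genes and ribosomal protein genes with processed copies, cannot be told apart reliably.

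Identifiers were matched to symbols through RefSeq and GENCODE tables (42567 of 87398, 48.7%, holding 87.5% of reads on average) and the other reads were left out. Counts were summed to 18838 genes, rounded to whole numbers and tested with edgeR 4.0.16 in R 4.3.3: TMM scaling, its filter on low counts by group (14314 genes left), a quasi-likelihood F test over 16 groups with 16 residual degrees of freedom, and Benjamini-Hochberg adjustment at 0.05. Differences of responses were contrasts of the same fit. CPM values are TMM-scaled. For transcript usage, diffSpliceDGE of edgeR was run over 7052 genes. All libraries of the series held 16091376 to 29742687 reads, and 3 counts was taken as the limit that a count of 0 allows. That limit covers counting error alone, because 1 molecule can give several reads. The tests were checked on simulated data with known changes.

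The members and the gene lists were chosen with earlier results of these data known. Named genes were the 15 highest and 15 lowest called changes above 5 CPM without overlap between groups, up to 4 called members of each list by size, a set of further genes (the CDK11 complex, PBK and early response genes), the 8 highest and lowest differences of responses, the 10 largest opposite calls, up to 10 calls seen in no other contrast, and the 8 genes lowest in usage p. Alternatives covered scaling, filters, the unit, the test (DESeq2 1.42.0), the libraries fitted, a fold threshold, a replicate block and leaving out single libraries. A few genes that these rules picked are not reported here.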

Additional observations from a re-analysis of the deposited data

Results flagged for a closer look

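The response of DLD1 G579S cells to OTS964 differed from that of other groups by a test of the difference itself in 5 comparisons: 1727 genes against the mean of the other lines labelled G579S, 6005 against the mean of 3 wild-type lines, and 746, 1775 and 1116 genes against A375, Cal51 and MDA-MB-231 G579S cells. The causes were not tested, and the line, its G579S derivative and its libraries cannot be told apart.

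Single genes stood out by the same test. Against the mean of the other G579S lines the differences, on the log2 scale, were 4.46 for ZNF26, 3.00 for ZFP62, 2.47 for C1QTNF6, 2.38 for NUP98, -4.82 for CLASRP, -4.63 for RBM5, -4.61 for TENT2 and -4.12 for NUP37. ZFP62, C1QTNF6 and NUP37 were not called in DLD1 G579S itself (adjusted p = 0.651, 0.782 and 0.138), and beside their differences stood a change of -8.45 for ZFP62 in MDA-MB-231 G579S, -5.97 for C1QTNF6 in A375 G579S and 7.603 for NUP37 in MDA-MB-231 G579S.

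Against the wild-type mean the differences were 12.1 for PRR14L, 11.5 for ZNF263, 11.1 for CHD1, 10.9 for ZSCAN29, -11.9 for ADCY3, -5.43 for CLASRP, -3.93 for PTP4A2 and -3.40 for SDCCAG8. Values beyond 10 in size come from genes listed at 0 in both libraries of at least 1 group and depend on the fit's prior count, so they are not sizes of a change. CHD1, a chromatin remodeller, was listed at 0 in 1 DMSO and 1 OTS964 library of DLD1 G579S and at 13.9 and 81.4 CPM in the others.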

How the results depend on the processing

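No called value changed sign under any alternative run. The count of 3368 called genes lay between 2914 and 4327 under 8 alternatives of scaling, filter, unit, block, DESeq2 and the G579S libraries alone. It was 5935 (3077 higher, 2858 lower) in a fit of the 4 DLD1 G579S libraries, 1138 (202 higher, 936 lower) with a fold of at least 2, and 1965 to 2165 (796 to 988 higher, 1122 to 1248 lower) without 1 library. Library totals gave 527 higher and 2831 lower. The difference from the other G579S lines (1727) was 2747 genes with DESeq2 (1219 higher), 234 higher and 1663 lower with library totals, 853 to 2361 without 1 library (251 to 1007 higher, 602 to 1354 lower) and 414 higher with the replicate block. The highest of these, 2361, left out Cal51 G579S DMSO replicate 1, an alternative chosen after seeing the data. The difference from the wild-type mean (6005) was lower for 1879 genes with library totals against 3152. The share of calls in the wild-type direction (54.4%) was 67.1% with library totals and 52.5% with DESeq2. Transcript usage (36 genes) gave 21 with the replicate block, 22 to 28 without 1 library and 236 with a bias-adjusted dispersion, chosen after seeing the data. Causes were not tested.

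Of 185 named gene values, 152 stayed on the same side of the threshold with library totals and 33 lost their call, and 40 to 49 lost it without 1 library. Same-numbered DLD1 G579S libraries did not deviate together (correlation -0.0354), so the numbers were not taken to pair them. With the replicate block 2914 genes were called and 19 named genes lost their call. With 2 libraries a group and 14620985 to 18585832 assigned reads each, a gene at 0 could have up to 3 counts, and small changes of low genes can be missed.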
